A study of Homo sapiens with 6 samples.

Results

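The genes described here are the ligands and receptors of the TNF superfamily, taken by gene symbol from the read count table. The table of 23250 genes held all 41 of them, 16 ligands and 25 receptors. TNF superfamily ligands are trimeric proteins, mostly anchored in the membrane of one cell, that cluster receptors on another. Receptors with a death domain can start apoptosis, and most others bind TRAF adaptors and activate NF-kB. In B cells CD40, CD27 and the receptors for BAFF and APRIL carry survival and help signals, and lymphotoxin made by B cells shapes the stroma of lymphoid follicles.

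The samples are RNA-seq libraries of OCI-LY1, a human cell line established from diffuse large B cell lymphoma (DLBCL) and grown in IMDM with fetal bovine serum. All 6 samples received siRNA against BCL6, the transcriptional repressor of germinal centre B cells, and then an introduced BCL6. In 3 samples (wild-type rescue) this was the WT form, and in 3 (mutant rescue) it was mutated in RD2, one of the domains through which BCL6 represses its targets. No sample without siRNA or without a rescue was analysed here, all samples come from 1 line, and the remaining endogenous BCL6 is not separated from the introduced copy. BCL6 itself had 19069, 16998 and 18789 counts with WT BCL6 and 14166, 13726 and 13827 with the RD2 mutant (679 ± 24.3 and 519.9 ± 8.71 CPM, SD, n = 3), groups that do not overlap, so the mutation and the amount of BCL6 cannot be told apart. CPM is the count of a gene scaled to the size of its library, here with TMM factors, and ± gives the SD over the 3 libraries of a rescue. Libraries held 26298456 to 27574867 counts, where the limit of 3 counts that a count of 0 allows equals 0.109 to 0.114 CPM (counting error only). All 6 B cell markers checked were abundant (84332 to 89531 counts summed per wild-type rescue library, 77777 to 80019 per mutant rescue library), and of these MS4A1 (CD20) was 5.43-fold lower in the mutant rescue. The 7 T cell markers summed to 5 to 7 and 6 to 12 counts, with CD3E and CD2 at 0 throughout. The 6 NK cell markers summed to 38 to 54 and 82 to 111 counts, mostly from PRF1. KLRD1 went the other way, with 13, 10 and 9 counts against 2, 0 and 2. The 8 myeloid markers summed to 55 to 72 and 80 to 115 counts, mostly from CD68. Their part in the results was not tested. Whether the libraries are from separate cultures is not in the labels, so p-values reflect the spread among these libraries alone, and that spread may be technical.

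The promoters of 4 members are shown because LTA, TNF and LTB are direct neighbours among protein-coding genes and all 3 fell, and because TNFRSF21 had the smallest p of all members. Each is the 250 bases before the most upstream RefSeq start (GRCh38.p14), written 5′ to 3′ on the gene's strand. They lie at chr6:31571849-31572098 on the plus strand (LTA), chr6:31575315-31575564 on the plus strand (TNF), chr6:31582426-31582675 on the minus strand (LTB) and chr6:47309906-47310155 on the minus strand (TNFRSF21). Capitals mark matches, on either strand, to TTCCNNGAA, a form of the element that BCL6 and STAT factors bind, or to the NF-kB consensus.
LTA: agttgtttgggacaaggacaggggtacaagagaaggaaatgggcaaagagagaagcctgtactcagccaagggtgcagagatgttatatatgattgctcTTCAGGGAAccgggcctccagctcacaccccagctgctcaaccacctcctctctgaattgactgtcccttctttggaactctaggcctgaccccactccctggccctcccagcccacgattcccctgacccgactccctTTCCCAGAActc
TNF: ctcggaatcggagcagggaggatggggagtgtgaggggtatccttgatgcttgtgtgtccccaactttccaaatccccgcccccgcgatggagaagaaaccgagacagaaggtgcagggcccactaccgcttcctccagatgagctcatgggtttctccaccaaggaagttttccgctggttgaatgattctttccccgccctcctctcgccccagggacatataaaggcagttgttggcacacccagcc
LTB: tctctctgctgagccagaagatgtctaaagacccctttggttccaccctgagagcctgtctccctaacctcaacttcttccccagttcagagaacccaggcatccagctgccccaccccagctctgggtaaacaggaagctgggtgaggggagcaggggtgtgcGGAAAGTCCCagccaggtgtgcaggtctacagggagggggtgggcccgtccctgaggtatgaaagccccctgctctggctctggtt
TNFRSF21: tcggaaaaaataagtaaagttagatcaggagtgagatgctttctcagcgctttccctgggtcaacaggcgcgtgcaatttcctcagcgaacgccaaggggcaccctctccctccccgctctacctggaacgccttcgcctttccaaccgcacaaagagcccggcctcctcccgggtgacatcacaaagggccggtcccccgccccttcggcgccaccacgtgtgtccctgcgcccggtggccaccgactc
The LTA window held TTCCNNGAA at -151 to -143 (read on the opposite strand) and at -12 to -4, counted back from the start, and the LTB window held an NF-kB match at -86 to -77. Neither motif matched in the windows of TNF and TNFRSF21. Across all 35116 RefSeq windows of this length 3.86% held TTCCNNGAA and 5.21% the NF-kB consensus. For 27 of the 41 members RefSeq windows were matched, 37 in all. A count of members is therefore not comparable with these shares of single windows. TTCCNNGAA was held by 2 members (LTA and TNFRSF9) in at least 1 window. The NF-kB consensus was held by 7 (FAS, LTA, LTB, TNFRSF14, TNFRSF9, TNFSF13 and TNFSF14). These are matches of letters, and nothing measured here says whether a factor was bound.

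Most ligand transcripts that could be tested were lower in the mutant rescue. Of 16 ligands, 10 had enough counts to be tested, and 7 fell and 3 rose (quasi-likelihood F test of edgeR at an adjusted p under 0.05, over every tested gene). In bulk RNA, fewer cells expressing a gene and less RNA per cell cannot be told apart. Of all 12406 genes tested, 70.1% changed, 34.8% falling and 35.4% rising, so a change as such is common here. Of the 10 ligands 5 fell and 1 rose at least 2-fold, beside 3.22% and 6.30% of all tested genes. Their median log2 fold change (mutant minus wild-type rescue) was -1.10 and that of all tested genes 0.01. TNF and TNFSF15 reached the level needed for testing in all 3 wild-type rescue libraries but not in all 3 mutant rescue libraries. These counts, the median and the p-values of TNF and TNFSF15 therefore lend no support of their own. The values of the rescues did not overlap for any of the 10 tested ligands, nor for 72.4% of all tested genes.

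**Figure D1:**
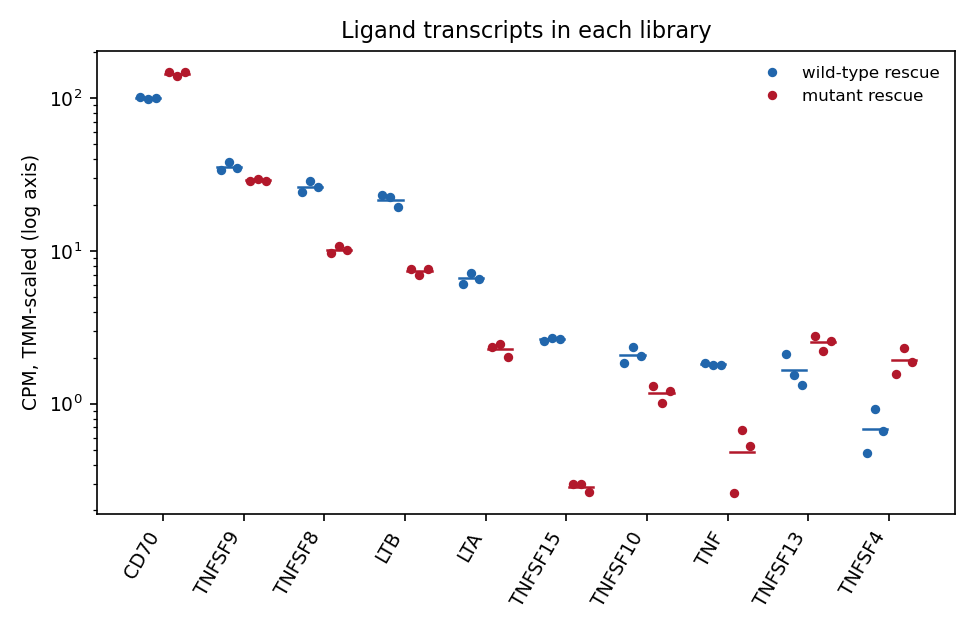
TMM-scaled CPM (log axis) of the 10 tested ligands, with 1 point per library and a bar at the mean of the 3 libraries of each rescue. LTB, LTA, TNF, TNFSF8 and TNFSF15 lie lower in every mutant rescue library, whereas CD70, TNFSF13 and TNFSF4 lie higher.

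TNF and both lymphotoxin chains fell together. TNF, the inflammatory cytokine for which the family is named, had 51, 47 and 49 counts with WT BCL6 and 7, 18 and 14 with the RD2 mutant. It fell 3.72-fold, from 1.82 ± 0.0359 to 0.486 ± 0.208 CPM (edgeR log2 fold change -1.89 with an SE of 0.25, adjusted p = 1.00e-06). The mutant libraries scattered more than the wild-type ones, and all 3 were below them. LTA, the soluble lymphotoxin that also binds the TNF receptors, had 166, 188 and 180 counts against 63, 66 and 54. This was a 2.90-fold fall, from 6.62 ± 0.571 to 2.28 ± 0.224 CPM (edgeR log2 fold change -1.53 with an SE of 0.13, adjusted p = 7.18e-10). LTB, which holds lymphotoxin at the cell surface and with LTA forms the ligand of LTBR, had 634, 586 and 526 counts against 205, 186 and 203. It fell 2.92-fold, from 21.6 ± 2.04 to 7.40 ± 0.410 CPM (edgeR log2 fold change -1.55 with an SE of 0.083, adjusted p = 7.60e-13). For LTA as for LTB every library with the mutant lay below every library with WT BCL6. Summed per transcript length, the 3 genes dropped from 29.6 ± 2.26 to 10.1 ± 0.262 CPM per kb. LTB made up 81.4% ± 1.85 of that sum with WT BCL6 and 82.0% ± 2.48 with the mutant, and LTA 14.9% ± 1.70 and 15.1% ± 1.74. These shares moved by less than their spread while the level fell. The share of TNF went from 3.68% ± 0.261 to 2.90% ± 1.30.

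TNFSF15 and TNFSF8, another pair of neighbouring genes, also fell. TNFSF15 (TL1A), the ligand of the death receptor TNFRSF25, showed the largest fold change among the tested ligands. Its counts were 71, 70 and 72 with WT BCL6 and 8, 8 and 7 with the RD2 mutant. The fall was 9.07-fold, from 2.64 ± 0.0449 to 0.287 ± 0.0204 CPM (edgeR log2 fold change -3.18 with an SE of 0.23, adjusted p = 8.66e-11). The mutant rescue is close to the detection floor, which makes the fold size less certain than the direction. TNFSF8, the ligand of the activation receptor CD30, had 664, 754 and 711 counts against 260, 290 and 270. It fell 2.58-fold, from 26.4 ± 2.34 to 10.2 ± 0.553 CPM (edgeR log2 fold change -1.37 with an SE of 0.075, adjusted p = 9.63e-13), and every mutant library lay below every wild-type one. TNFSF10 (TRAIL), which triggers apoptosis through TNFRSF10A and TNFRSF10B, had 51, 61 and 56 counts against 35, 27 and 32. Its level dropped 1.77-fold, from 2.08 ± 0.239 to 1.17 ± 0.153 CPM (edgeR log2 fold change -0.83 with an SE of 0.19, adjusted p = 5.23e-04). TNFSF9, the 4-1BB ligand that costimulates T cells, had 927, 1001 and 953 counts against 769, 798 and 761 and fell 1.23-fold (edgeR log2 fold change -0.30 with an SE of 0.054, adjusted p = 4.96e-05). Against a minimum change of 1.2-fold that fall did not pass (edgeR glmTreat, adjusted p = 0.223).

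Ligands that rose included the most abundant one. CD70, which engages CD27 on lymphocytes, had 2786, 2583 and 2725 counts with WT BCL6 and 3949, 3734 and 3964 with the RD2 mutant. The groups did not overlap, and CD70 rose 1.45-fold, from 100.2 ± 1.39 to 145 ± 5.29 CPM (edgeR log2 fold change 0.54 with an SE of 0.036, adjusted p = 2.90e-11). The adjacent gene TNFSF9 thus moved the other way. TNFSF4, the OX40 ligand through which antigen-presenting cells costimulate T cells, had 13, 24 and 18 counts against 42, 62 and 50. At low counts it rose 2.81-fold, from 0.684 ± 0.223 to 1.92 ± 0.373 CPM (edgeR log2 fold change 1.49 with an SE of 0.24, adjusted p = 1.29e-05). TNFSF4 overlaps an uncharacterised noncoding gene that the table also lists. TNFSF13 (APRIL), a plasma cell survival factor, had 58, 40 and 36 counts against 74, 59 and 69. Its 1.52-fold rise (edgeR log2 fold change 0.60 with an SE of 0.18, adjusted p = 0.00627) rested on wild-type rescue replicate 3, without which the adjusted p was 0.0504. The readthrough gene TNFSF12-TNFSF13, which the table also lists, shares exons with TNFSF13, so reads of TNFSF13 may have been dropped or shared.

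Per transcript length, CD70 led the ligands in both rescues, at 109.7 ± 1.52 CPM per kb with WT BCL6 and 159 ± 5.80 with the mutant. It made up 61.9% ± 1.58 of the summed ligand level in the former and 81.8% ± 0.659 in the latter. In the wild-type rescue LTB (24.1 ± 2.28) and TNFSF9 (21.4 ± 1.41) followed with overlapping libraries, then TNFSF8 (13.8 ± 1.23) and LTA (4.39 ± 0.379). TNF and TNFSF10 overlapped at 1.09 ± 0.0214 and 1.07 ± 0.122 CPM per kb, and TNFSF10 also overlapped TNFSF13. In the mutant rescue TNFSF9 (17.4 ± 0.376) stood above LTB (8.25 ± 0.458), and TNFSF15 was last of the tested ligands at 0.0428 ± 0.00305 CPM per kb. The sum over all 16 ligands was 177 ± 3.29 CPM per kb with WT BCL6 and 194 ± 5.54 with the mutant, the gain of CD70 exceeding the summed losses.

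The remaining 6 ligands were too low to be tested. CD40LG and FASLG had 0 counts in all 6 libraries, which allows at most 0.114 CPM in the shallowest. TNFSF11, TNFSF12 and TNFSF14 had at most 4 counts in any library. TNFSF12 overlaps the readthrough gene TNFSF12-TNFSF13, and how shared reads were counted is not given. TNFSF13B, which encodes the B cell survival factor BAFF, had 8, 9 and 18 counts against 7, 5 and 5.

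The receptors were divided, and a few of them rose strongly. Of 25 receptors, 17 were tested. The test was passed by 11 of them, 7 rising and 4 falling, which is 64.7%, against 70.1% of all tested genes. Changes of 2-fold or more comprised 4 rises (TNFRSF21, TNFRSF1A, TNFRSF13B and TNFRSF11A) and 1 fall (TNFRSF13C), beside 6.30% and 3.22% of all tested genes. The median log2 fold change was 0.30, against 0.01 over all tested genes. TNFRSF1A, TNFRSF11A and NGFR reached the level needed for testing in all 3 libraries of the mutant rescue only. These counts, the median and the p-values of TNFRSF1A, TNFRSF11A and NGFR therefore lend no support of their own either.

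**Figure D2:**
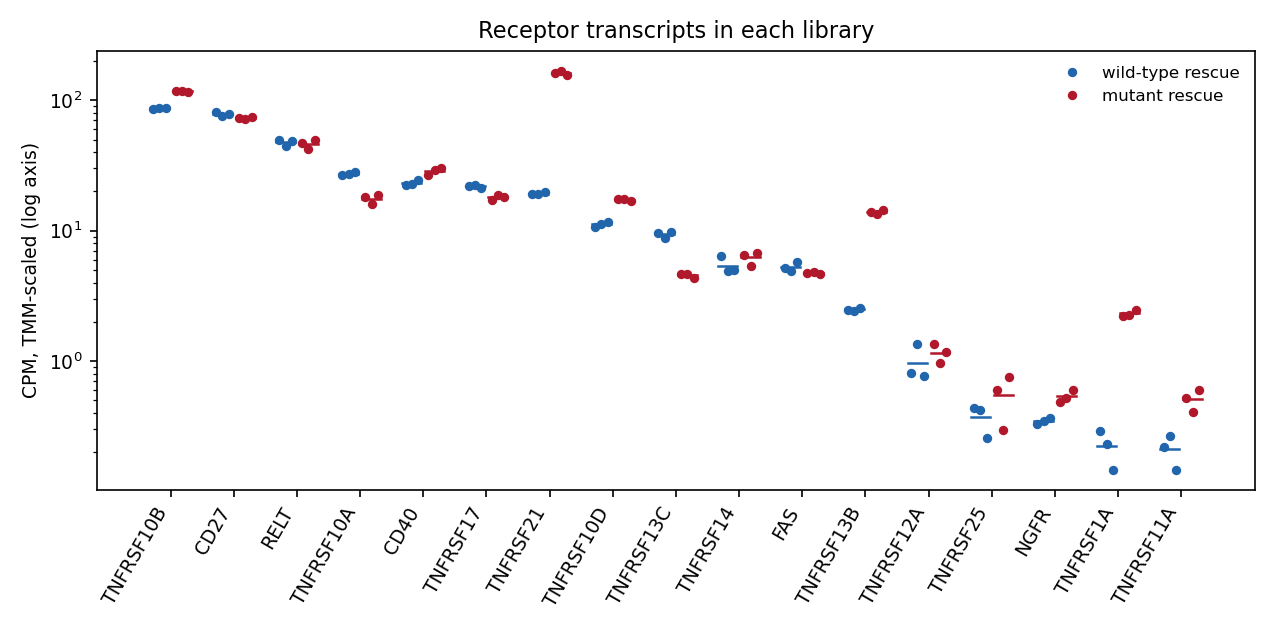
TMM-scaled CPM (log axis) of the 17 tested receptors, with 1 point per library and a bar at each rescue's mean. TNFRSF21, TNFRSF13B and TNFRSF1A stand far higher in every mutant rescue library, while RELT, TNFRSF12A, TNFRSF14 and TNFRSF25 overlap between the rescues.

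Receptors with a death domain were split. TNFRSF21 and TNFRSF1A rose most, TNFRSF10B rose less and TNFRSF10A fell, while TNFRSF25, FAS and NGFR did not pass the test. TNFRSF21 (death receptor 6) had 519, 497 and 540 counts with WT BCL6 and 4332, 4526 and 4171 with the RD2 mutant. It rose 8.43-fold, from 19.3 ± 0.481 to 162 ± 5.97 CPM (edgeR log2 fold change 3.08 with an SE of 0.045, adjusted p = 4.06e-22), the fifth smallest p in the whole table. Among receptors it went from seventh to second place per length, from 5.36 ± 0.134 to 45.2 ± 1.66 CPM per kb. TNFRSF1A, the main receptor of TNF, was near the floor in the wild-type rescue with 8, 6 and 4 counts and reached 59, 61 and 66 in the mutant rescue. This was a rise from 0.223 ± 0.0728 to 2.32 ± 0.144 CPM (10.2-fold; edgeR log2 fold change 3.35 with an SE of 0.26, adjusted p = 3.14e-10), whose size is uncertain because it starts so low. The groups were far apart, and the receptor was still only 1.04 ± 0.0650 CPM per kb in the mutant rescue. TNFRSF1B, the other TNF receptor, had at most 6 counts in any library. TNFRSF25 (death receptor 3) had 12, 11 and 7 counts against 16, 8 and 20, which overlap, and did not pass the test (edgeR log2 fold change 0.56 with an SE of 0.37, adjusted p = 0.181). Without mutant rescue replicate 2 it did (adjusted p = 0.0350), and its reads may be shared with the overlapping gene ESPN.

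FAS, the death receptor through which T cells delete germinal centre B cells, had 142, 127 and 156 counts with WT BCL6 and 126, 129 and 124 with the RD2 mutant. After scaling the rescues did not overlap (5.25 ± 0.435 and 4.72 ± 0.0751 CPM), but the difference did not pass the test (edgeR log2 fold change -0.15 with an SE of 0.11, adjusted p = 0.207). ACTA2 and FAS-AS1 overlap FAS.

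The receptors of TRAIL changed in opposite directions. TNFRSF10A, a death receptor, had 735, 707 and 773 counts with WT BCL6 and 483, 426 and 498 with the RD2 mutant. It fell 1.56-fold, from 27.4 ± 0.827 to 17.5 ± 1.48 CPM (edgeR log2 fold change -0.64 with an SE of 0.064, adjusted p = 1.38e-08). TNFRSF10B, the other death receptor of the set, had 2336, 2274 and 2382 counts against 3172, 3166 and 3092. It rose 1.36-fold, from 86.5 ± 1.16 to 118 ± 1.17 CPM (edgeR log2 fold change 0.44 with an SE of 0.035, adjusted p = 3.69e-10). TNFRSF10D, a decoy whose death domain is truncated, had 291, 293 and 318 counts against 468, 469 and 450 and rose 1.55-fold (edgeR log2 fold change 0.63 with an SE of 0.070, adjusted p = 7.45e-08). For each of these 3 genes the libraries of the rescues were fully separated, as they were for 72.4% of all tested genes. TNFRSF10C, the decoy without a cytoplasmic tail, had 1 count in 1 library and none elsewhere. The 4 genes are direct neighbours and similar in sequence, the rule for multi-mapping reads is not given in the sources used here, and TNFRSF10B overlaps RHOBTB2. Per length, TNFRSF10B made up 61.2% ± 0.578 of the summed TRAIL receptor level with WT BCL6 and 71.4% ± 0.986 with the mutant. The share of TNFRSF10A went from 29.6% ± 0.389 to 16.3% ± 1.26, and that of TNFRSF10D from 9.24% ± 0.247 to 12.3% ± 0.274.

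Receptors of BAFF and APRIL, on which B cells and plasma cells depend for survival, also moved apart. TNFRSF13B (TACI), which binds both ligands, had 68, 63 and 70 counts with WT BCL6 and 375, 362 and 381 with the RD2 mutant. It rose 5.59-fold, from 2.49 ± 0.0782 to 13.9 ± 0.419 CPM (edgeR log2 fold change 2.48 with an SE of 0.098, adjusted p = 4.31e-15). TNFRSF13C, the BAFF receptor of mature B cells, had 264, 231 and 268 counts against 124, 124 and 116. It fell 2.08-fold, from 9.43 ± 0.522 to 4.54 ± 0.153 CPM (edgeR log2 fold change -1.06 with an SE of 0.095, adjusted p = 3.37e-09). TNFRSF17 (BCMA), the receptor of plasma cells, had 602, 582 and 581 counts against 461, 505 and 480. The fall was slight, from 21.9 ± 0.493 to 18.0 ± 0.803 CPM (edgeR log2 fold change -0.28 with an SE of 0.061, adjusted p = 3.74e-04), and did not pass against a minimum change of 1.2-fold (glmTreat, adjusted p = 0.371). No library of one rescue overlapped the other for any of the 3, nor for 72.4% of all tested genes. Per length, the share of TNFRSF13B in their sum went from 6.99% ± 0.306 to 34.8% ± 1.47, that of TNFRSF13C from 9.13% ± 0.596 to 3.89% ± 0.183 and that of TNFRSF17 from 83.9% ± 0.888 to 61.3% ± 1.5. The sum itself was 26.2 ± 0.332 CPM per kb with WT BCL6 and 29.5 ± 0.657 with the mutant.

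**Figure D3:**
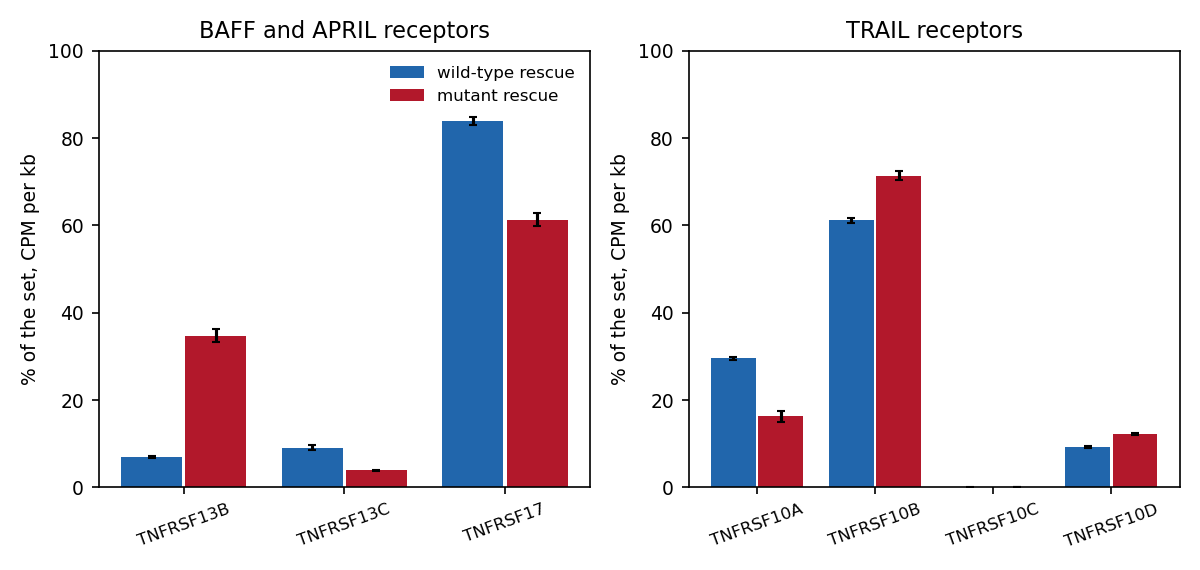
Share (%) of each receptor in the summed CPM per kb of its set, as the mean of 3 libraries per rescue with SD bars, for the BAFF and APRIL receptors (left) and the TRAIL receptors (right). TNFRSF13B goes from 6.99% to 34.8% of its set and TNFRSF10A from 29.6% to 16.3% of its own.

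CD40, CD27 and TNFRSF14 differed by small amounts. CD40, the receptor of T cell help, had 614, 600 and 662 counts with WT BCL6 and 719, 778 and 804 with the RD2 mutant. It rose 1.23-fold, from 23.2 ± 0.966 to 28.7 ± 1.71 CPM (edgeR log2 fold change 0.30 with an SE of 0.058, adjusted p = 9.62e-05), but not against a minimum change of 1.2-fold (glmTreat, adjusted p = 0.208). CD27, the receptor of CD70 and a marker of antigen-experienced B cells, had 2223, 1982 and 2149 counts against 1953, 1920 and 1979. Its fall of 0.11 on the log2 scale (SE 0.039; edgeR, adjusted p = 0.0191) was lost without wild-type rescue replicate 1 (adjusted p = 0.0959) or replicate 3 (0.0663) and with library size scaling (0.0646). CD27 also overlaps TAPBPL. Even so it was the most abundant receptor per length in both rescues, at 58.7 ± 1.96 and 54.5 ± 1.06 CPM per kb. TNFRSF14 (HVEM), a receptor often lost in germinal centre lymphomas, had 175, 127 and 135 counts against 175, 145 and 180, which overlap. It did not pass the test (edgeR log2 fold change 0.20 with an SE of 0.12, adjusted p = 0.136), but did without wild-type rescue replicate 1 (0.0273) or without mutant rescue replicate 2 (0.0287).

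Of the other receptors, TNFRSF11A (RANK), known for its part in bone and lymph node development, had 6, 7 and 4 counts against 14, 11 and 16. It rose 2.40-fold from near the floor (edgeR log2 fold change 1.26 with an SE of 0.38, adjusted p = 0.00561), a call that DESeq2 did not make (adjusted p = 0.0551). RELT, which is expressed widely in lymphoid tissue, stayed within its spread at 47.7 ± 2.88 and 46.2 ± 3.78 CPM (edgeR log2 fold change -0.05 with an SE of 0.058, adjusted p = 0.492). Without mutant rescue replicate 2 its log2 fold change was 0.0166. TNFRSF12A, the receptor of TWEAK, and NGFR, the low-affinity neurotrophin receptor, were low and did not pass the test (edgeR, adjusted p = 0.349 and 0.0932). TNFRSF4, TNFRSF8, TNFRSF9, TNFRSF18, LTBR and EDA2R had at most 2 counts in any library, and LTBR overlaps SCNN1A.

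**Figure D4:**
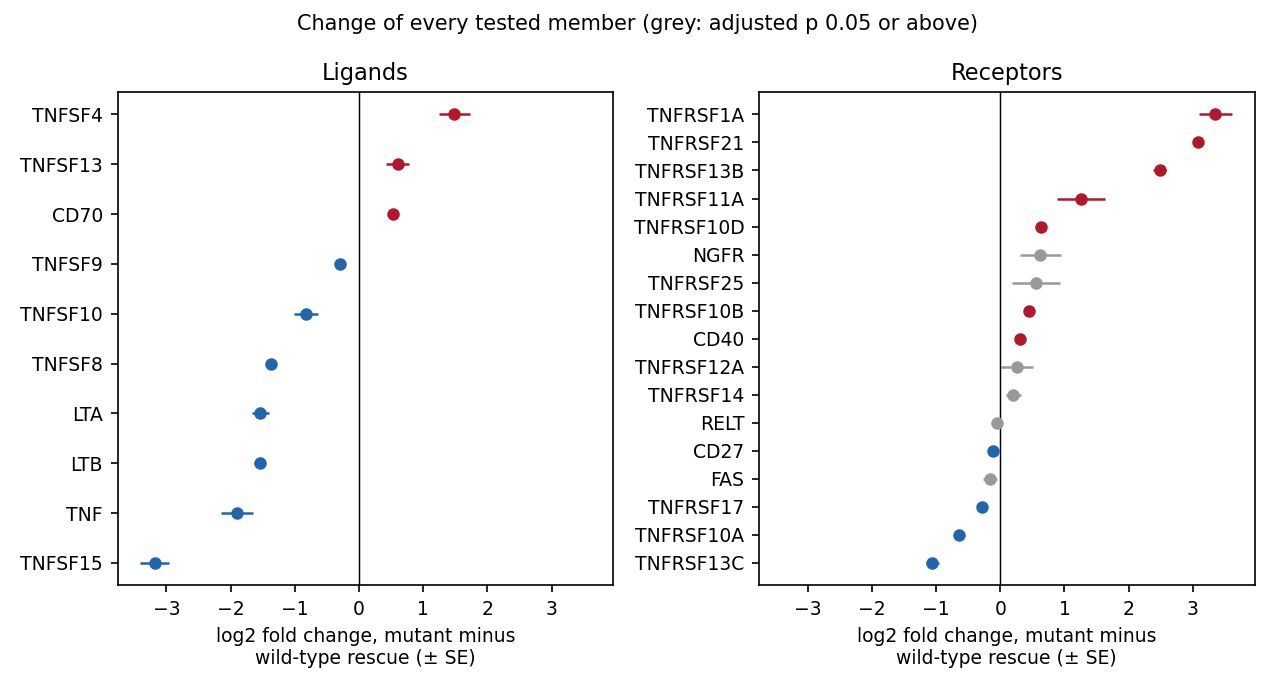
Log2 fold change (mutant minus wild-type rescue, bars ± SE from the edgeR fit) of the 10 tested ligands and 17 tested receptors, red for higher, blue for lower and grey where the test was not passed. Ligands run from -3.18 (TNFSF15) to 1.49 (TNFSF4) and receptors from -1.06 (TNFRSF13C) to 3.35 (TNFRSF1A).

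Per length, several receptors could not be ordered. In the wild-type rescue RELT and CD40 overlapped (13.5 ± 0.815 and 13.4 ± 0.559 CPM per kb), as did TNFRSF14 with TNFRSF10D and NGFR with TNFRSF1A. In the mutant rescue TNFRSF17 overlapped CD40 (18.1 ± 0.808 and 16.6 ± 0.988), TNFRSF13C overlapped TNFRSF1A, which overlapped TNFRSF12A, and TNFRSF25 overlapped NGFR. The sum over all 25 receptors went from 158 ± 2.70 to 207 ± 1.79 CPM per kb, with TNFRSF21 contributing 3.39% ± 0.0837 of it with WT BCL6 and 21.9% ± 0.964 with the mutant.

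Known ligand and receptor pairs among the members were taken from a list of 25, which may not hold every known pair. Of these, 9 had both genes at a testable level, 7 only the ligand, 8 only the receptor and 1 neither. CD70 and CD27 were the abundant pair, and the others joined TNF and LTA to TNFRSF1A, TNFSF10 to 3 of its receptors, TNFSF13 to TNFRSF13B and TNFRSF17, and TNFSF15 to TNFRSF25. The receptors of LTB, TNFSF4, TNFSF8 and TNFSF9 had at most 2 counts in any library, and the ligands of CD40 and FAS had none.

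Adaptors and proximal signalling genes were called about as often as genes at large. Of 32 listed genes all 32 were tested. Among them 10 rose and 11 fell, none by 2-fold, while 11 missed the threshold. This is 65.6% called, near the 70.1% of all tested genes (35.4% higher, 34.8% lower), with a median log2 fold change of 0.04 against 0.01 over all tested genes. Without mutant rescue replicate 1 only 7 fell. TAB2, which links TRAF6 to the kinase TAK1, rose 1.58-fold, from 101 ± 1.63 to 160.0 ± 9.33 CPM, and CYLD and TNFAIP3, deubiquitinases that restrain NF-kB, rose 1.41-fold and 1.81-fold. MAP3K14 (NIK), the kinase of the noncanonical pathway used by CD40, LTBR and the BAFF receptor, rose 1.33-fold, from 28.7 ± 0.182 to 38.1 ± 0.579 CPM. TRAF3IP2, an adaptor known from IL-17 signalling, fell 1.90-fold, from 27.6 ± 0.998 to 14.6 ± 0.798 CPM. TANK (1.36-fold), TNIP1 (1.28-fold) and TRAF5 (1.25-fold), which bind TRAF proteins, TNFAIP3 and the receptors themselves, were also lower. Adjusted p for these 8 genes ranged from 4.77e-12 for TAB2 to 6.18e-07 for TRAF5 (edgeR).

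For the genes known to respond to NF-kB the share was also near that of all genes. Of 30 listed genes 21 were tested. Among them 8 rose and 6 fell while 7 missed the threshold, which is 66.7% called against 70.1% of all tested genes. Their median log2 fold change was 0.17, and that of all tested genes 0.01. TNFAIP3, BIRC3 and TRAF1 stand on this list and on the one for signalling. The adhesion molecule gene ICAM1 had 74, 84 and 74 counts with WT BCL6 and 332, 334 and 310 with the RD2 mutant and rose 4.23-fold (edgeR log2 fold change 2.08 with an SE of 0.10, adjusted p = 1.56e-13). IRF4, a transcription factor of activated B cells and plasma cells, rose 5.12-fold (log2 2.36), and CCR7, a homing receptor, 3.52-fold at low counts, whereas TNFAIP8 rose by only 0.44 on the log2 scale. REL, the NF-kB subunit of activated B cells, had 1775, 1839 and 1781 counts against 679, 767 and 734 and fell 2.46-fold (edgeR log2 fold change -1.30 with an SE of 0.052, adjusted p = 5.29e-15). The activation markers CD83 (log2 -0.67) and CD86 (-0.44) and the cytoskeletal gene PLEK (-0.43) also fell. The NF-kB targets CCL4, CCL17, CCL22, EBI3, IL6 and IL10 had at most 2 counts in any library. Also untested were TNFAIP2 (5, 10 and 13 counts against 2, 0 and 1), CD80 (3, 10 and 5 against 5, 7 and 7) and CCL3 (3, 2 and 5 against 1, 2 and 2). Of 6 superfamily genes outside the 41 that the table holds (TNFSF18, EDA, TNFRSF6B, TNFRSF11B, TNFRSF19 and EDAR), none had more than 2 counts in any library.

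**Figure D5:**
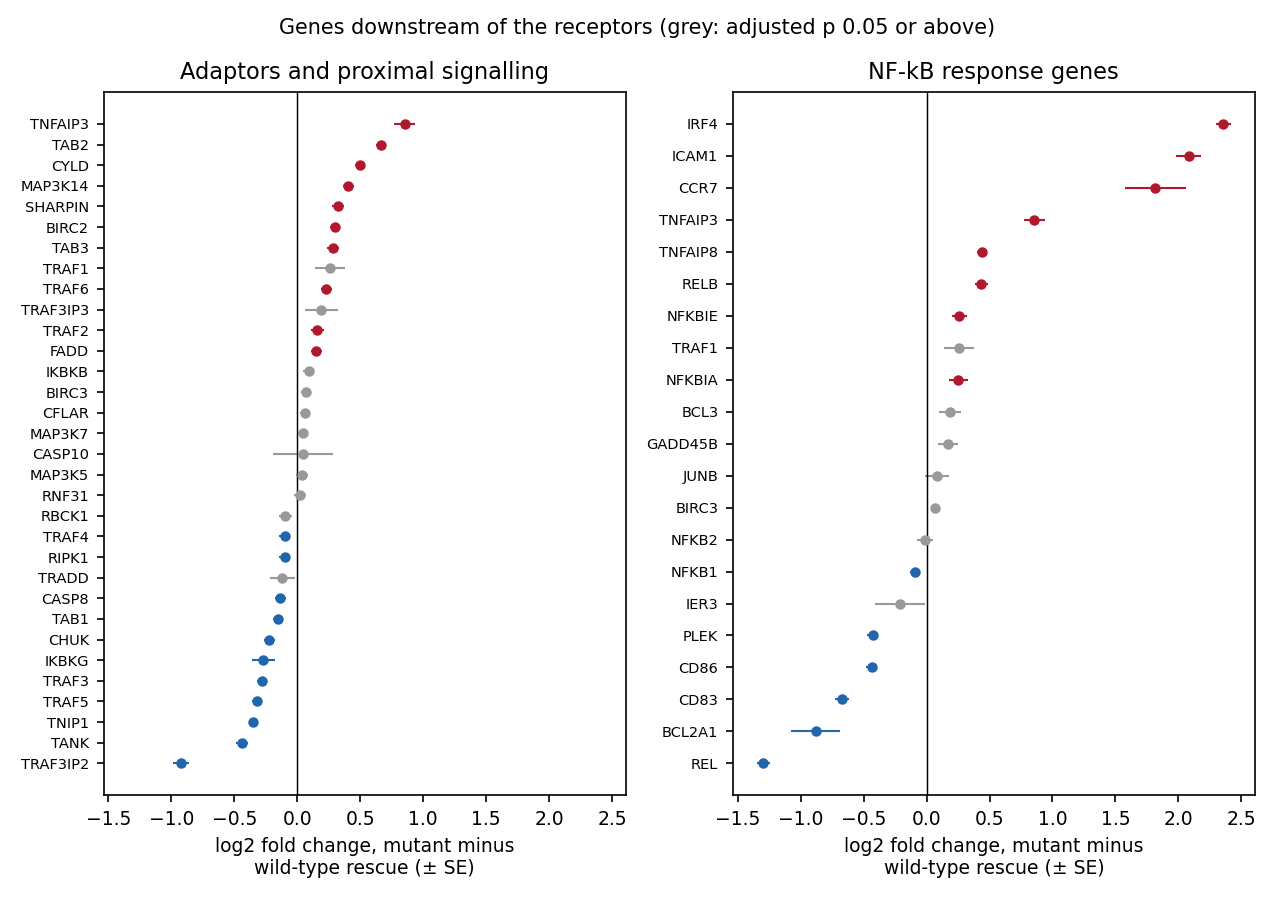
Log2 fold change (mutant minus wild-type rescue, bars ± SE) of 32 adaptor and signalling genes (left) and 21 NF-kB response genes (right), red for higher, blue for lower and grey where the test was not passed. The signalling genes stay between -0.92 (TRAF3IP2) and 0.85 (TNFAIP3), and the response genes run from -1.30 (REL) to 2.36 (IRF4).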

How the data were processed

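Values are raw counts as the authors deposited them, whole reads for each gene symbol in 6 RNA-seq libraries. CASAVA 1.8.2, STAR, edgeR and build hg19 are named per the submitters' processing notes. The sources used here name no read counter, annotation, strand setting or multi-mapping rule, so reads of overlapping genes cannot be told apart. Replicate pairs differed by more than counting noise (chi-square per degree of freedom 1.60 to 5.47), and all 6 libraries were kept. Mutant rescue replicate 2 stood furthest apart, at 5.47 and 4.36 against mutant rescue replicates 1 and 3, which gave 1.75 between them.

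In R 4.3.3 with edgeR 4.0.16, filterByExpr at its defaults kept 12406 of 23250 genes. Libraries were scaled with TMM, and a robust quasi-likelihood fit (glmQLFTest) compared the 3 mutant rescue with the 3 wild-type rescue libraries without a covariate. Benjamini-Hochberg adjustment ran over the whole tested table, and an adjusted p under 0.05 was called. An exact test of 3 against 3 cannot go below p = 0.1, so none was used. The script was tested on simulated data in which far fewer genes changed than here. That test does not cover the setting of these data. Levels per length used each gene's longest protein-coding GENCODE v29 transcript, and promoters and gene order came from RefSeq (GRCh38.p14), whereas the counts were made on hg19.

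The members and lists were chosen with earlier results of these data known. All members are accounted for. Full values were given for changed members past a log2 fold change of 1 and for those sharing a ligand or receptor with one, and for the other lists up to 4 genes in each direction with the smallest p. Values of CD40, CD70, CD27, FAS and other members beyond this rule and counts of pairs were added after values were seen. The same holds for CCR7, CCL3, CCL4, CCL17, CCL22, EBI3, IL6, IL10, TNFAIP2 and CD80. The listed name TNFRSF19L is an older symbol of RELT. Alternatives were DESeq2 1.42.0 and limma-voom (limma 3.58.1) as tests, glmTreat with a minimum of 1.2-fold, a block for the replicate number, RLE or plain library size as the scaling, either no filter or 1 CPM in every library as the filter, and 1 library left out at a time.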

Additional observations from a re-analysis of the deposited data

How the results depend on the processing

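Of the 27 tested members, 18 kept their direction and their side of the threshold under every alternative that gave them a value. For 12 of these (LTA, LTB, TNFSF8, TNFSF10, CD70, TNFRSF10A, TNFRSF10B, TNFRSF10D, TNFRSF13B, TNFRSF13C, TNFRSF21 and FAS) all alternatives did, whereas the other 6 (TNF, TNFSF4, TNFSF15, TNFRSF1A, TNFRSF12A and NGFR) were removed by the filter of 1 CPM in every library and have no value there. TNF, TNFSF15, TNFRSF1A and NGFR reached the level needed for testing in all libraries of only 1 rescue, so their unchanged calls lend no support of their own. Against a minimum change of 1.2-fold (glmTreat) 2 receptors fell, 4 signalling genes rose, 3 signalling genes fell and 4585 genes changed in all, a stricter question by construction. With 1 library left out, 7 to 11 signalling genes fell, 7 without mutant rescue replicate 1. The log2 fold change of RELT ran from -0.097 to 0.0166 with 1 library left out, reversing without mutant rescue replicate 2 (edgeR, adjusted p = 0.769). The causes of these shifts were not tested. Same-numbered libraries deviated together for numbers 1 and 2 but not for 3 (correlations 0.444, 0.450 and -0.084 over 8737 genes). Between differently numbered libraries the correlations ran from -0.481 to 0.219. The labels state no pairing, so the main fit took none, and whether same-numbered libraries share a batch was not tested. With the replicate number as a block 9285 genes changed. The block left the counts of ligands (3 higher, 7 lower) and receptors (7 higher, 4 lower) as they were, moved signalling genes to 13 higher and 12 lower, and moved NF-kB response genes from 8 to 12 higher, with 6 lower in both fits. Scaling moved the median of all tested genes by little (0.0047 with RLE, 0.04 with library sizes, against 0.01). Depth limits the members with few counts, and 14 were too low to be tested.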
